A study of Mus musculus with 8 samples.

Results

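The circadian clock genes followed here are 10 of the 24421 gene symbols in the count table, chosen by name: Arntl, Clock, Per1, Per2, Cry1, Cry2, Nr1d1, Nr1d2, Dbp and Bhlhe40. RNA was sequenced from bone marrow neutrophils, isolated with magnetic beads from 8-week-old female C57BL/6 mice that were WT or Padi4 KO, the latter lacking exon 1 of Padi4, the gene of a peptidylarginine deiminase, in the whole animal. Cells of each genotype were left unstimulated (Nostim) or given R848, a TLR7 agonist, at 1 µg/ml for 6 h, which makes 4 groups of 2 libraries. The sample titles give 0 h for the unstimulated cells and the study's methods 6 h of culture, so that if the titles hold, the effects of R848 and of 6 h in culture cannot be told apart. Neither the hour of the day at which marrow was taken nor whether the duplicates were separate mice is given in the sources used here, so the p-values measure only the spread between these libraries.

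The mammalian clock is a transcriptional feedback loop. CLOCK and BMAL1, the product of Arntl, bind E-box elements and switch on the Period and Cryptochrome genes, whose products accumulate and repress CLOCK and BMAL1 in turn. REV-ERB receptors from Nr1d1 and Nr1d2 repress Arntl, Dbp carries the rhythm to output genes, and BHLHE40 (DEC1) represses E-box transcription and is also induced by many inflammatory and hypoxic stimuli. In mouse neutrophils the clock is known for setting daily changes in chemokine receptors, adhesion molecules and release from the marrow.

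In these neutrophils 4 genes of the negative limb moved apart after R848, in both genotypes, while Cry2 did not pass the test in either. Bhlhe40 rose 16.0-fold in WT and 19.8-fold in Padi4 KO cells, and Cry1 rose 7.67-fold and 11.4-fold. Per1 was 5.53-fold lower in WT and 8.46-fold lower in Padi4 KO cells, and Per2 was 4.55-fold and 3.66-fold lower. None of the 10 genes passed the test for a difference of response between the genotypes. Only these 4 genes had a mean of at least 10 counts per library, and the other 6 never exceeded 14 counts in a library.

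Library totals ran from 562446 to 1177972 counts on genes, and a count of 3 corresponded to between 2.18 and 6.12 CPM, where CPM is a count scaled by library size and TMM factor. Every Padi4 KO library, at 716440 counts or more, was larger than every WT library, at 668857 or fewer. As a check of the labels, Padi4 had 527 to 590 counts in unstimulated and 166 to 234 counts in R848-treated WT libraries, against 21 to 54 counts in the 4 Padi4 KO libraries. Neutrophil markers summed to between 95668 and 172268 CPM in every library. Among the erythroid markers, 4 hemoglobin genes stood at 0, and the others summed to 10.6 to 41.4 CPM in WT and 313 to 739 CPM in Padi4 KO. The sources used here do not say how reads matching several genes were counted. The 0 values therefore do not show that erythroid RNA was absent. All 10 clock genes were among the 12254 genes tested, those counted at least once in 2 or more libraries.

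Promoter sequences from RefSeq (GRCm38.p6) were found for 8 of the 10 genes, Per2 and Bhlhe40 having no entry. Windows of 250 bases before each start were searched on both strands for the E-box CACGTG, the site of CLOCK and BMAL1. Per1 and Cry1 were the matched genes with such a match, while 6.02% of all 32851 windows hold it. These 3 sequences are shown because Per1 and Cry1 share the element and moved in opposite directions after R848. Bases that lie in an annotated exon were left off the print, so that the Per1 sequence with the E-box runs over 249 bases and that of Cry1 over 240, without its TGACG. Capitals mark CACGTG and TGACG (or its complement), the core of the cyclic AMP response element, which 17.8% of all windows hold and which does not overlap the E-box.
Per1, chr11:69098699-69098947, plus strand: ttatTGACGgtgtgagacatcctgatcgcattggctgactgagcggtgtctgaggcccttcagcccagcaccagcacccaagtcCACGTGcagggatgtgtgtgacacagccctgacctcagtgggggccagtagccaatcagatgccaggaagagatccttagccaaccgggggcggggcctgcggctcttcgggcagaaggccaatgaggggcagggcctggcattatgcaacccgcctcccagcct
Per1, chr11:69099902-69100151, plus strand: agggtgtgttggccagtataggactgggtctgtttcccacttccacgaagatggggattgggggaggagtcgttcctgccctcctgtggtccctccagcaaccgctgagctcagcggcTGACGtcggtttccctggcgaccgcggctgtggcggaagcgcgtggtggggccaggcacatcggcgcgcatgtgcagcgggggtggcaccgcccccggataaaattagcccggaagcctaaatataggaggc
Cry1, chr10:85185065-85185304, minus strand: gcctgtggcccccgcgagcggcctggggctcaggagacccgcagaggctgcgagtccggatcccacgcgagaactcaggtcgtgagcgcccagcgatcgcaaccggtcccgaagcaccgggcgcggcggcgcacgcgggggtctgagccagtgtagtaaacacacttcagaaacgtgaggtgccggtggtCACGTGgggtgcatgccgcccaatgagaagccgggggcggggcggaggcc
Counted to the RefSeq start, which lies just past the printed end, the E-box begins 166 bases before the first Per1 start and 60 bases before the Cry1 start. The core TGACG is in the windows of both Per1 starts, of Cry1 and of Cry2, whereas the full element TGACGTCA, present in 1.55% of all windows, was in none of the members' windows. The windows of Arntl, Clock, Nr1d1, Nr1d2 and Dbp held none of these letters, nor the D-box letters TTATGTAA or TTACGTAA (0.931% of all windows), nor the ROR element letters TAGGTCA or TGGGTCA (5.38%). A match in a window is a description of sequence and was not tested as a binding site.

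Per length of exon, Per1 stood highest of the 10 genes before stimulation. Its level was 29.1 CPM per kb in unstimulated WT and 20.0 CPM per kb in unstimulated Padi4 KO libraries, where Cry1 came next with 12.8 and 8.05 CPM per kb. In WT, Bhlhe40 (6.50 CPM per kb) and Per2 (5.99 CPM per kb) overlapped each other, and each of the remaining 6 genes lay at or below 2.24 CPM per kb. After R848 the order turned over, with Bhlhe40 at 104 and Cry1 at 97.6 CPM per kb in WT, the ranges of which overlapped. In R848-treated Padi4 KO libraries Cry1, at 85.8 CPM per kb, stood above Bhlhe40, at 55.9 CPM per kb, without overlap. Per1 had dropped to 5.28 CPM per kb in WT and to 2.33 CPM per kb in Padi4 KO libraries.

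**Figure D1:**
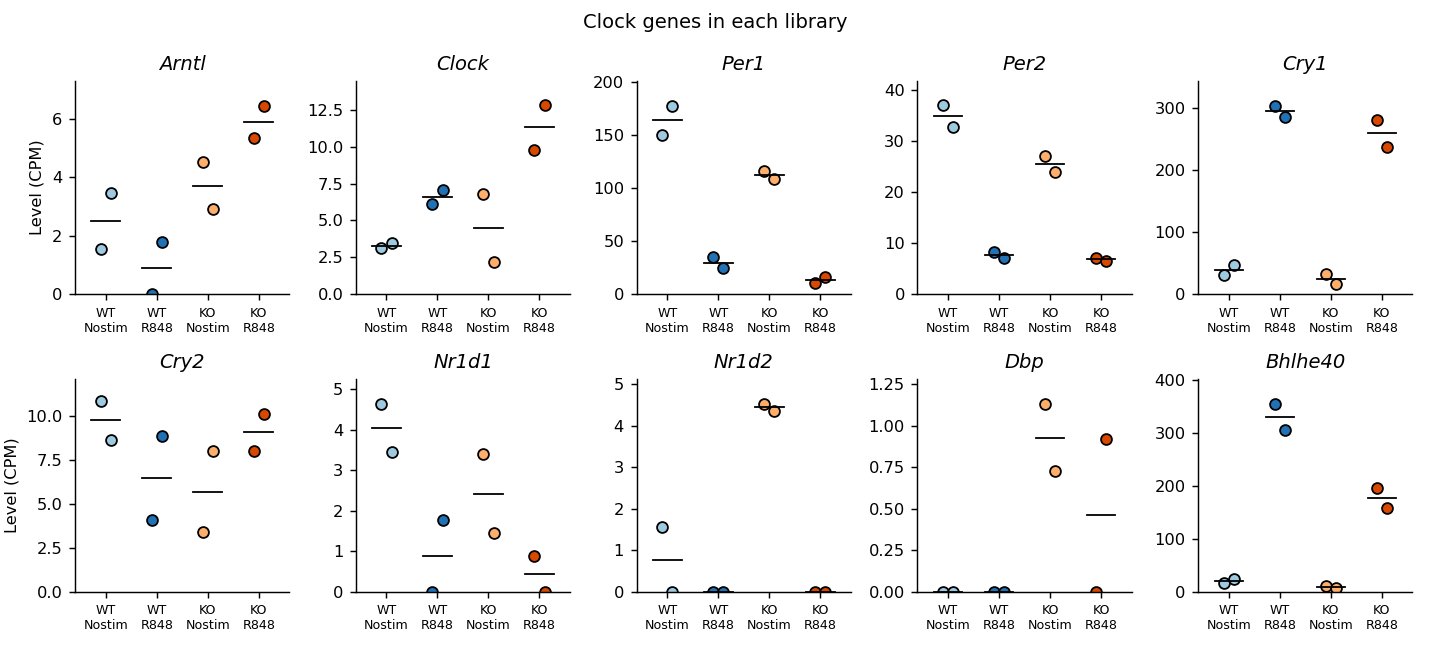
Level of each clock gene in CPM (counts scaled by library size and TMM factor, linear axis from 0, a separate scale per gene) in the 2 libraries of each group, with the group mean as a bar. Per1 and Per2 are lower and Cry1 and Bhlhe40 higher in every R848 library of both genotypes, while Arntl, Clock, Cry2, Nr1d1, Nr1d2 and Dbp never exceed 14 counts.

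The Period genes, Per1 and Per2, code for the repressor subunits that partner the cryptochromes, and both are also acutely inducible through cyclic AMP and glucocorticoid signalling in many cells. Per1 (chromosome 11, 69095217 to 69109960, plus strand, GRCm38) had 97 and 103 counts in unstimulated WT, 17 and 14 in R848-treated WT, 103 and 150 in unstimulated Padi4 KO and 12 and 17 in R848-treated Padi4 KO libraries. Every R848 library held fewer Per1 counts than every unstimulated library. The Per1 level fell from 164 ± 19.6 to 29.7 ± 7.02 CPM in WT and from 113 ± 5.40 to 13.1 ± 3.50 CPM in Padi4 KO cells (mean ± SD, n = 2). By the quasi-likelihood test of edgeR, adjusted after Benjamini-Hochberg, Per1 changed on the log2 scale by -2.47 (SE 0.24, adjusted p = 3.31e-23) in WT and -3.08 (SE 0.23, adjusted p = 1.21e-39) in Padi4 KO. Among the 6912 genes with a mean of at least 10 counts, Per1 ranked 149th from the lowest fold change in WT and 26th in Padi4 KO.

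Per2 (chromosome 1, 91415982 to 91459324, minus strand) was counted about 4 to 5 times less often than Per1 before stimulation. It had 24 and 19 counts in unstimulated WT, 4 and 4 in R848-treated WT, 24 and 33 in unstimulated Padi4 KO and 8 and 7 in R848-treated Padi4 KO libraries. The R848 libraries again lay below all unstimulated ones, with few counts behind each value. The Per2 level went from 34.9 ± 3.07 to 7.62 ± 0.768 CPM in WT and from 25.5 ± 2.26 to 6.77 ± 0.478 CPM in Padi4 KO cells. Its log2 fold change was -2.19 (SE 0.49, adjusted p = 6.79e-05 by edgeR) in WT and -1.87 (SE 0.39, adjusted p = 1.13e-05) in Padi4 KO.

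Markers of stromal and endothelial cells also moved with R848, 2 of the 5 tested being called lower in each genotype. Their summed level went from between 195 and 227 to between 38.9 and 49.0 CPM in WT, and from between 424 and 530.0 to between 42.6 and 49.6 CPM in Padi4 KO libraries. Of the 10 monocyte markers, 4 were called lower and 2 higher in each genotype, and of the 5 erythroid markers tested, 2 were called lower in WT and 2 higher in Padi4 KO. Among all tested genes, 10.8% were called lower and 7.18% higher in WT, and 8.83% lower and 8.09% higher in Padi4 KO. The part of these markers in the Per1 and Per2 results was not tested. In these bulk samples, fewer cells of a type and less RNA per cell cannot be told apart.

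The cryptochromes are the partners of the Period proteins in the repressor complex, CRY1 being its strongest repressor. Cry1 (chromosome 10, 85131700 to 85185064, minus strand) had 20 and 27 counts in unstimulated WT, 149 and 162 in R848-treated WT, 29 and 22 in unstimulated Padi4 KO and 317 and 259 in R848-treated Padi4 KO libraries. No R848 library came near the unstimulated range. The Cry1 level rose from 38.8 ± 11.1 to 295 ± 12.3 CPM in WT and from 24.4 ± 11.9 to 260 ± 30.9 CPM in Padi4 KO cells. The log2 fold change of Cry1 was 2.94 (SE 0.19, adjusted p = 2.55e-50 by edgeR's quasi-likelihood test) in WT and 3.51 (SE 0.17, adjusted p = 2.50e-93) in Padi4 KO, the 146th and 84th highest of the 6912 genes.

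Cry2, its paralog, did not follow Cry1. Cry2 had 7 and 5 counts in unstimulated WT, 2 and 5 in R848-treated WT, 3 and 11 in unstimulated Padi4 KO and 9 and 11 in R848-treated Padi4 KO libraries. Its log2 fold change was -0.55 (95% interval -1.94 to 0.84) in WT and 0.54 (-0.49 to 1.57) in Padi4 KO, and neither passed the test. Both intervals end below the change of Cry1 in the same genotype, so that a rise of Cry2 as large as that of Cry1 lies outside them.

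Bhlhe40 (chromosome 6, 108660629 to 108666925, plus strand) had the widest fold change of the 4 genes with a mean of at least 10 counts. It had 11 and 14 counts in unstimulated WT, 174 and 173 in R848-treated WT, 9 and 11 in unstimulated Padi4 KO and 221 and 172 in R848-treated Padi4 KO libraries. The R848 libraries stood more than 10-fold above the unstimulated ones in counts. In CPM, Bhlhe40 rose from 20.6 ± 5.05 to 331 ± 34.7 in WT and from 9.07 ± 1.55 to 177 ± 27.1 in Padi4 KO cells. The log2 fold change was 4.00 (SE 0.22, adjusted p = 1.30e-73 by edgeR) in WT and 4.30 (SE 0.22, adjusted p = 4.34e-80) in Padi4 KO, the 82nd and 53rd highest of the 6912 genes. An antisense gene, 0610040F04Rik, overlaps Bhlhe40, and since the library kit does not mark strand, reads from the pair cannot be told apart.

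**Figure D2:**
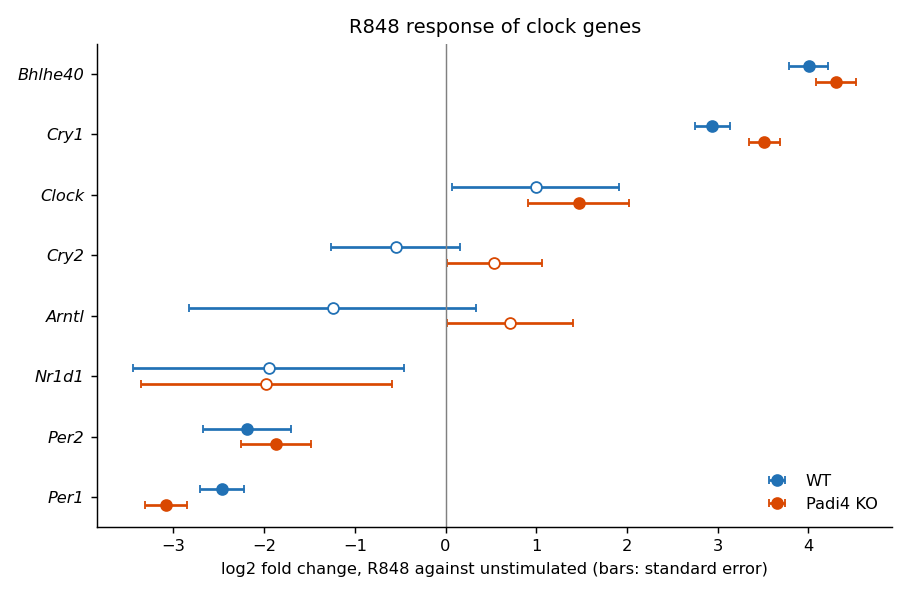
log2 fold change of R848-treated against unstimulated neutrophils for the 8 clock genes with counts in all 4 groups, in WT (blue) and Padi4 KO (orange), with standard errors from edgeR and filled points for changes past 2-fold with a false discovery rate under 0.1. Bhlhe40 and Cry1 lie between 2.94 and 4.30 and Per1 and Per2 between -3.08 and -1.87 in both genotypes, while Arntl and Cry2, on few counts, lie on either side of 0.

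The opposite moves of Cry1 and Per1 can be read within a library, where no scaling enters. Cry1 counts were between 0.147 and 0.282 times the Per1 counts in the 4 unstimulated libraries. After R848 the ratio of Cry1 to Per1 was 8.76 and 11.6 in WT and 26.4 and 15.2 in Padi4 KO libraries. The ratio of Bhlhe40 to Per1 likewise went from between 0.0733 and 0.136 to between 10.1 and 18.4. The ratio of Cry1 to Bhlhe40, a description with no test, was 1.82 and 1.93 in unstimulated WT and 0.856 and 0.936 in R848-treated WT libraries, against 3.22 and 2, and then 1.43 and 1.51, in Padi4 KO libraries.

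**Figure D3:**
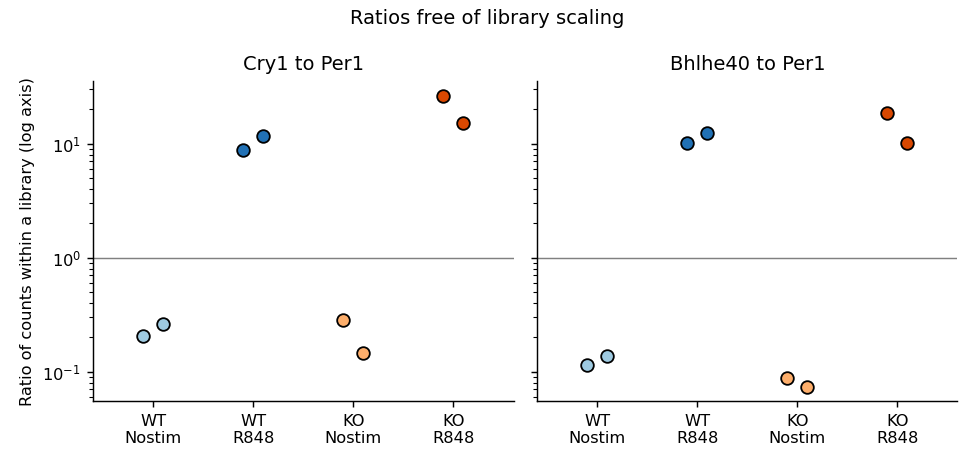
Ratio of Cry1 counts (left) and Bhlhe40 counts (right) to Per1 counts in each of the 8 libraries, on a log axis with a line at 1. All unstimulated libraries lie below 0.3 and all R848 libraries above 8.

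The positive limb was hardly counted. Arntl had 1 and 2 counts in unstimulated WT, 0 and 1 in R848-treated WT, 4 and 4 in unstimulated Padi4 KO and 6 and 7 in R848-treated Padi4 KO libraries, and no comparison of Arntl passed the test. Its difference between R848-treated Padi4 KO and WT libraries, 13 counts against 1, gave a ratio of 6.19 with an exact 95% counting interval of 0.930 to 263. Clock had 2 and 2, 3 and 4, 6 and 3, and 11 and 14 counts in the same order of groups. In CPM, which allows for depth, Clock was 9.77 and 12.9 in R848-treated Padi4 KO against 6.12 and 7.08 in R848-treated WT libraries. That genotype difference did not pass the test (0.75 on the log2 scale, adjusted p = 0.519 by edgeR). The rise of Clock in Padi4 KO cells was called, with a log2 fold change of 1.47 (SE 0.56, adjusted p = 0.0308 by edgeR), while in WT it was 0.99 (95% interval -0.81 to 2.80). The call of Clock was lost with DESeq2 (1.33, adjusted p = 0.409), with library size alone as the scale (1.10, adjusted p = 0.118), without replicate 2 of unstimulated Padi4 KO (0.73, adjusted p = 0.492) and without replicate 2 of R848-treated Padi4 KO (1.14, adjusted p = 0.262).

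The REV-ERB genes and Dbp, among the most rhythmic transcripts of many tissues, were at the floor. Nr1d1 had 3 and 2 counts in unstimulated WT, 0 and 1 in R848-treated WT, 3 and 2 in unstimulated Padi4 KO and 1 and 0 in R848-treated Padi4 KO libraries. The fitted log2 changes of Nr1d1, -1.95 in WT and -1.98 in Padi4 KO, did not pass the test, and the gene overlaps Thra on the other strand. Nr1d2 had 1 and 0 counts in unstimulated WT and 4 and 6 in unstimulated Padi4 KO libraries, and 0 in each of the 4 R848 libraries. Its fall in Padi4 KO cells was called (adjusted p = 0.00795 by edgeR), with a level at least 1.64-fold lower when 3 counts in each library are taken as the floor, and DESeq2 gave no adjusted p for it. Dbp had 1 count in 3 of the Padi4 KO libraries and 0 in all WT libraries, so that no change of Dbp was detectable at this depth.

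By the rule for responses, past 2-fold with a false discovery rate under 0.1, 2 clock genes rose and 2 fell in WT, where 7.18% of all tested genes were called higher and 10.8% lower. In Padi4 KO, 3 rose and 3 fell, Clock and Nr1d2 being the additional ones, against 8.09% called higher and 8.83% lower among all tested genes. Over the 10 genes the median log2 response was -0.90 in WT and -0.12 in Padi4 KO, beside -0.17 and -0.03 over all tested genes. These medians lie between genes that moved in opposite directions.

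No clock gene passed the test of a difference of response between genotypes by edgeR's quasi-likelihood test, in either direction, where 3.44% of all tested genes were called higher and 1.26% lower in Padi4 KO. That balance over all genes turned with DESeq2 (35 higher and 90 lower) and with relative log expression factors (160 and 233). No member had an unadjusted p below 0.05 either, and DESeq2 called 0 of the 3 members, Per1, Cry1 and Bhlhe40, for which it gave an adjusted p in this comparison. The difference, Padi4 KO minus WT on the log2 scale, was 0.58 for Cry1 (95% interval -0.04 to 1.196, adjusted p = 0.430) and -0.61 for Per1 (-1.40 to 0.17, adjusted p = 0.548). Bhlhe40 and Per2 differed by 0.30 (-0.54 to 1.14) and 0.31 (-1.08 to 1.71). With 2 libraries a group, these intervals reach past 2-fold for Cry1, Per1 and Bhlhe40 and past 3-fold for Per2.

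Levels were also compared between genotypes within a treatment. Without stimulation, Bhlhe40, Cry1 and Per1 were called lower in Padi4 KO than in WT cells at a false discovery rate below 0.1, and 0 members were called higher, where 14.4% of all tested genes were called lower and 9.54% higher. The log2 difference was -1.19 (SE 0.43, adjusted p = 0.0315 by edgeR) for Bhlhe40, -0.76 (SE 0.30, adjusted p = 0.0520) for Cry1 and -0.54 (SE 0.15, adjusted p = 0.00271) for Per1. For Bhlhe40 and Per1 both Padi4 KO libraries lay below both WT libraries, and for Cry1 the groups overlapped. Per2, at -0.47 (95% interval -1.08 to 0.13), did not pass. All 3 calls were lost with DESeq2, with library size alone and without replicate 2 of unstimulated WT. Those of Bhlhe40 and Cry1 were also lost without replicate 2 of unstimulated Padi4 KO, and that of Cry1 without any 1 of the 4 R848 libraries.

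After R848, Bhlhe40 and Per1 were called lower in Padi4 KO cells and no member higher, with 7.84% of all tested genes called lower and 9.44% higher. Bhlhe40 was 196 and 158 CPM in Padi4 KO against 355 and 306 CPM in WT libraries, a log2 difference of -0.89 (SE 0.12, adjusted p = 3.11e-11 by edgeR). Per1 was 10.7 and 15.6 against 34.7 and 24.8 CPM, a difference of -1.16 (SE 0.38, adjusted p = 0.0198). Neither gene overlapped between the genotypes, but the Per1 call rested on 12 to 17 counts a library and was lost without replicate 1 of R848-treated WT (-1.06, adjusted p = 0.170) or of R848-treated Padi4 KO (-1.01, adjusted p = 0.118). Cry1 differed by -0.18 (95% interval -0.41 to 0.05) and Per2 by -0.16 (-1.41 to 1.09), and neither passed the test. Cry1 was called lower with relative log expression factors (-0.28, adjusted p = 0.0941 by edgeR) and without replicate 1 of R848-treated Padi4 KO (-0.42, adjusted p = 0.0405).

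Neutrophil markers were themselves lower in Padi4 KO libraries. Without stimulation 9 of 9 in the table were called lower, beside 14.4% of all tested genes, with a median log2 difference of -0.64. After R848, 8 of 9 neutrophil markers were called lower, beside 7.84% of all tested genes, with a median of -0.62 for the markers. Their sum was 95668 to 98138 CPM in Padi4 KO against 142785 to 152059 CPM in WT without stimulation, and 103679 to 104970 against 147224 to 172268 CPM after R848. Erythroid marker sums were 313 to 318 CPM against 32.5 to 41.4 CPM, and after R848 722 to 739 against 10.6 to 12.2 CPM. Monocyte marker sums were 1824 to 1828 against 1447 to 1602 CPM, and after R848 2004 to 2040 against 1692 to 1816 CPM. Without stimulation 7 of the 10 monocyte markers were called higher and 1 lower (median log2 difference 0.82). After R848, 5 were called higher and 0 lower (0.67), where 9.54% and then 9.44% of all tested genes were called higher. Stromal and endothelial marker sums were 424 to 530 against 195 to 227 CPM, and after R848 42.6 to 49.6 against 38.9 to 49.0 CPM.

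With libraries scaled to the summed neutrophil markers, a choice made after the data were seen, the responses to R848 remained called for Per1, Per2, Cry1 and Bhlhe40 in both genotypes, but the genotype differences did not all hold. That scale shifts all genes alike: the median log2 difference of the 6912 genes with a mean of at least 10 counts stood at 0.45 without stimulation and 0.60 after R848, against -0.16 and -0.003 with TMM, and values on it are read against these medians. Per1 without stimulation then differed by 0.06 (adjusted p = 0.822 by edgeR), Cry1 by -0.15 and Bhlhe40 by -0.59 (adjusted p = 0.351). After R848, Per1 differed by -0.55 (adjusted p = 0.263), Cry1 stood at 0.42 (adjusted p = 0.00713), above 0 but below the median gene, and Bhlhe40 at -0.28 (adjusted p = 0.0939), still called lower. On that scale Arntl (2.99, adjusted p = 0.0267) and Clock (1.35, adjusted p = 0.0691) passed the threshold in R848-treated Padi4 KO cells, and so did Nr1d2 without stimulation (2.79, adjusted p = 0.0828), each on few counts and none of them with TMM. The lower Bhlhe40 after R848 was the 1 genotype difference of a clock gene called under all 15 alternatives, where it ranged from -1.17 to -0.28.

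**Figure D4:**
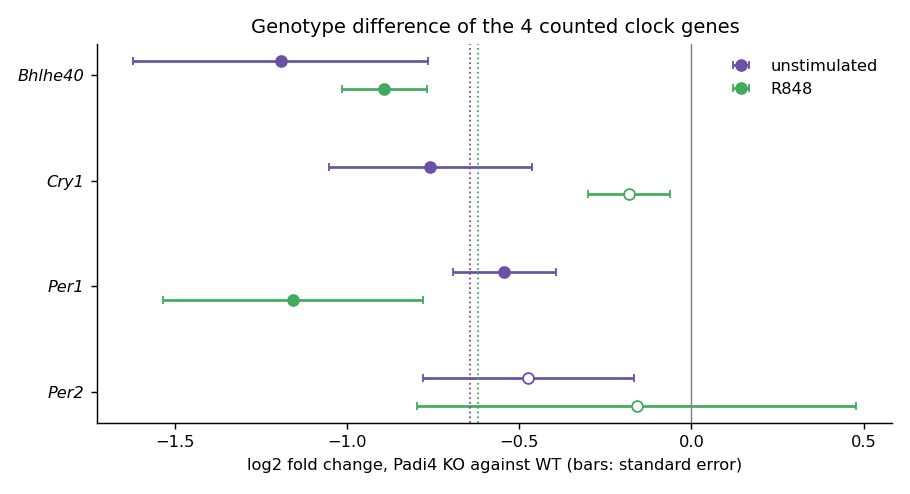
log2 fold change of Padi4 KO against WT neutrophils for the 4 clock genes with a mean of at least 10 counts, unstimulated (purple) and after R848 (green), with standard errors from edgeR, filled points for a false discovery rate under 0.1, and dotted lines at the median of the 9 neutrophil markers (-0.64 and -0.62). All 8 points lie below 0 on this TMM scale, while scaling to the summed neutrophil markers moves the median gene to 0.45 and 0.60 and with it Per1 and Per2 without stimulation, and Per2 and Cry1 after R848, above 0 but below that median, as library size alone does for the last pair (0.051 and 0.034).

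Beyond the 10 genes, 36 further genes of the clock were listed in 3 groups: other transcription factors, the kinases, phosphatases and ubiquitin ligases that set the stability of the clock proteins, and corepressors with output genes. Of the 12 other transcription factors 7 could be tested, of which 0 rose and 1 fell in WT (7.18% and 10.8% of all tested genes), and 0 rose and 0 fell in Padi4 KO (8.09% and 8.83%), counts too small to be set apart from those shares. Timeless, which acts at the replication fork and binds clock proteins, fell in WT (-2.07, SE 0.62, adjusted p = 0.00498 by edgeR), to 5 counts in the 2 R848-treated libraries together. In Padi4 KO Timeless was at -0.96 (adjusted p = 0.00694 by edgeR), short of a 2-fold change, and its difference of response did not pass the test (adjusted p = 0.550). Nfil3, the repressor opposite Dbp at D-box elements, was the other of them with a mean of at least 10 counts, and went from 54.5 to 59.9 CPM in WT and from 60.4 to 45.2 CPM in Padi4 KO without passing the test. Over these 7 the median log2 response was 0.11 in WT against -0.41 in Padi4 KO.

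Of the 14 genes for protein stability 13 were tested, of which 1 rose and 1 fell in WT (7.18% and 10.8% of all tested genes), and 3 rose and 0 fell in Padi4 KO (8.09% and 8.83%), with medians of 0.31 and 0.47. Ppp1cb, a catalytic subunit of protein phosphatase 1, which acts on PER proteins, rose in both genotypes (1.28, SE 0.10 in WT and 1.46, SE 0.09 in Padi4 KO). Fbxw11, a ubiquitin ligase subunit for PER proteins, was at 0.92 in WT and rose by 1.23 in Padi4 KO. The difference of response of Fbxw11 did not pass the test (adjusted p = 0.616 by edgeR). Csnk1d, a casein kinase that phosphorylates PER proteins, was at 0.31 in WT and 0.93 in Padi4 KO, and this difference of response was called (0.61, SE 0.21, adjusted p = 0.0859 by edgeR). With DESeq2, with relative log expression factors, with library size alone and without any 1 library other than replicate 1 of unstimulated WT, 0 of the further clock genes were called higher in this comparison. The level of Csnk1d started lower in Padi4 KO (89.3 and 94.99 CPM against 135 and 152 CPM) and was 164 to 188 CPM in all R848 libraries. With levels scaled to the summed neutrophil markers, the unstimulated difference of Csnk1d was lost (-0.020 on the log2 scale, adjusted p = 0.958 by edgeR), where the median gene stood at 0.45. Btrc, the paralog of Fbxw11, fell in WT (-2.20, SE 0.68), on 4 counts in the 2 R848-treated WT libraries together, and was at -0.15 in Padi4 KO. The difference of response of Btrc did not pass the test (adjusted p = 0.140 by edgeR). Ddb1, an adaptor of cullin ligases, was higher in Padi4 KO in both treatments (0.55 and 0.82).

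All 10 corepressor and output genes were tested, of which 3 rose and 1 fell in WT (7.18% and 10.8% of all tested genes), and 2 rose and 0 fell in Padi4 KO (8.09% and 8.83%). Nampt, a clock-controlled enzyme of NAD salvage, rose by 2.41 (SE 0.12) in WT and 2.09 (SE 0.11) in Padi4 KO. It was also lower in R848-treated Padi4 KO than WT libraries (-0.64, SE 0.09, adjusted p = 1.50e-10 by edgeR), and at -0.029 on the neutrophil marker scale, where the median gene was at 0.60. Por, cytochrome P450 oxidoreductase, rose by 1.395 and 1.41. Cdkn1a, the p21 cell cycle inhibitor, rose by 2.17 in WT, from 4 counts in the 2 unstimulated libraries together. In Padi4 KO Cdkn1a was at 0.97 (adjusted p = 0.0683 by edgeR), short of a 2-fold change. Ezh2, a histone methyltransferase that binds the CLOCK complex, fell in WT (-1.80, SE 0.46, adjusted p = 0.000667) and was at -0.34 in Padi4 KO. The difference of response between genotypes did not pass the test for Cdkn1a (adjusted p = 0.621 by edgeR) or Ezh2 (adjusted p = 0.108). Ncor1, a corepressor used by the REV-ERB receptors, was lower in Padi4 KO without stimulation (-0.49, SE 0.10), and at 0.11 on the neutrophil marker scale, where the median gene was at 0.45.

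**Figure D5:**
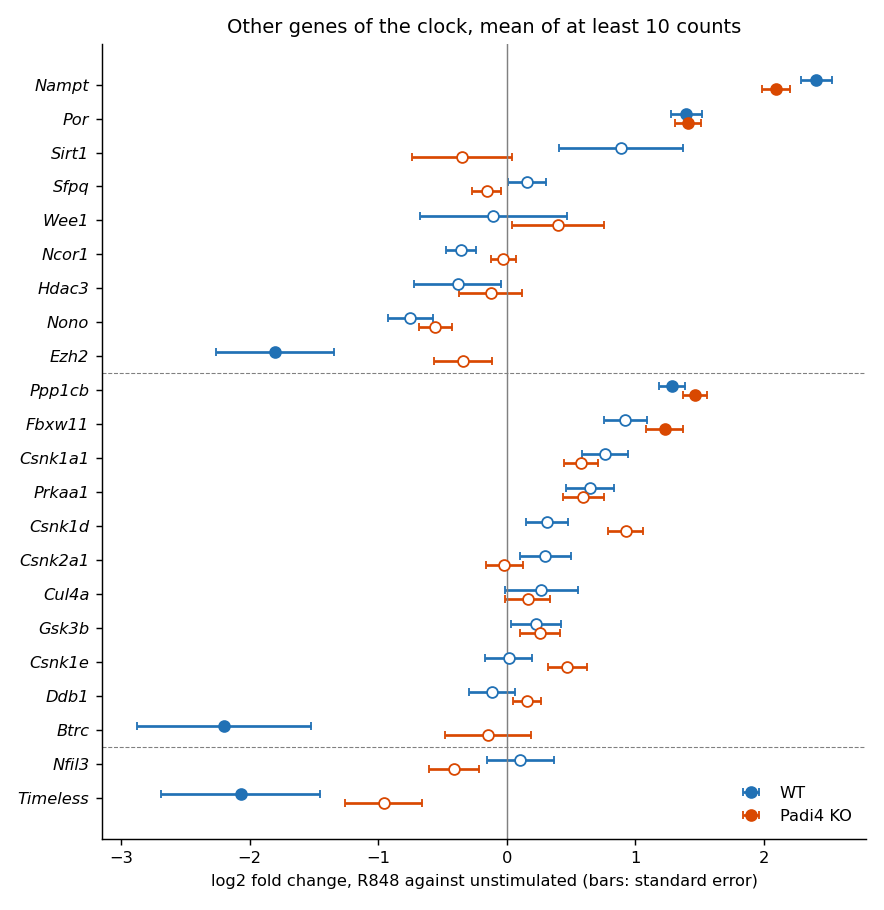
log2 fold change of R848-treated against unstimulated neutrophils in WT (blue) and Padi4 KO (orange) for 22 of the further clock genes with a mean of at least 10 counts, with standard errors from edgeR and filled points for changes past 2-fold with a false discovery rate under 0.1. From top to bottom, dashed lines part corepressors and output genes, genes for protein stability, and other transcription factors, with Nampt highest at 2.41 and Btrc lowest at -2.20, both in WT.

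Among genes whose daily change marks neutrophil ageing, Cxcl2, a chemokine ligand of Cxcr2 on the neutrophil, rose by 3.58 in WT and 1.61 in Padi4 KO on the log2 scale. Cxcr4, the receptor that holds neutrophils in the marrow, was at -0.82 in WT and -0.26 in Padi4 KO, short of a 2-fold change, while Cxcr2 was at -0.48 and -0.33. Itgam, the CD11b integrin subunit, was lower in Padi4 KO in both treatments (-0.48 and -0.30), and at 0.12 and 0.31 on the neutrophil marker scale, where the median gene was at 0.45 and 0.60.

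Over the 8 libraries, log2 CPM of Cry1 correlated most with B4galt5, Slc39a4 and Ninj1 (Pearson's r of 0.994 each), that of Bhlhe40 with Ptpn6, Birc3 and Stfa2l1 (r of 0.997 to 0.998), and that of Per1 with Hsp90b1, Atp11a and Vill (r of 0.991 to 0.994), among 2919 genes with a mean of at least 50 counts. These values largely restate the treatment, which all 8 points share, as 328, 429 and 79 genes correlated with Cry1, Bhlhe40 and Per1 at over 0.95.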

How the data were processed

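Per the labels and the study's methods, the authors checked reads with FastQC 0.11.7, trimmed them with cutadapt 1.16, mapped them to mm10 with STAR 2.5.3a and counted them with HTSeq 0.6.1p1. The deposited values are raw counts per gene symbol, without normalization. Neither annotation nor strand setting of the counting is given in the sources used here. The lines of HTSeq that name no gene, 10.6% to 13.0% of each library, were left out. Counts were fitted with edgeR 4.0.16 (R 4.3.3, limma 3.58.1; TMM factors, robust quasi-likelihood F test, 1 mean for each of the 4 groups), where the authors had used DESeq2. Genes with at least 1 count in at least 2 libraries were tested and p-values adjusted by the Benjamini-Hochberg method over all 12254 of them. A response counted as called when its false discovery rate was under 0.1 and its change over 2-fold, and the other 3 comparisons needed the first condition alone. A standard error is the size of the log2 change over the root of F, and 95% intervals span 1.96 of them on either side. No exact permutation test of 2 against 2 libraries can go below p = 0.333. Duplicates differed beyond sampling noise in all 4 groups, and each was kept as a sample. The excess, as chi-square over its degrees of freedom, was 1.13 in unstimulated WT and 1.05 in unstimulated Padi4 KO. After R848 it was 1.67 in WT and 1.16 in Padi4 KO. The common biological coefficient of variation was 4.7%, and the study's methods state only that samples were run in duplicate. Intervals and floors on counts cover counting error only. Levels per kb use union exon lengths of GENCODE M21 on GRCm38.

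The clock genes and all lists were chosen with earlier results of these data known. All 10 members are named. Of each other list, up to 5 genes called in any comparison, those with the smallest p, are named, while Nfil3, Btrc and Cxcr2 lie outside it and were chosen with their values in view. A few genes that the rule picks are left out here. The fit was tested on simulated data. Alternatives were DESeq2 1.42.0, relative log expression factors, library size alone, filterByExpr, no filter beyond 1 count, no limit on the fold change, the replicate number as a block, each library left out in turn and, added after the data were seen, scaling to the summed neutrophil markers.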

Additional observations from a re-analysis of the deposited data

Results flagged for a closer look

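The R848 response of Csnk1d, a casein kinase of the clock, differed between Padi4 KO and WT by 0.61 on the log2 scale (adjusted p = 0.0859 by edgeR's quasi-likelihood test), and was larger in Padi4 KO. Of the 36 further clock genes it was the 1 called higher in this comparison, and 0 were called higher with DESeq2, relative log expression factors, library size alone and 7 of the 8 fits that leave out a library, against 2 with filterByExpr. For Cxcr4 the response also differed, by 0.57 (adjusted p = 0.0147 by edgeR), from 518 to 531 CPM in unstimulated WT and 264 to 278 CPM in unstimulated Padi4 KO libraries to 283 to 310 and 210 to 242 CPM. Cxcl2 responded less in Padi4 KO, by -1.97 (adjusted p = 1.86e-13 by edgeR). For Sfpq and Itgam the R848 libraries lay on opposite sides of the unstimulated ones in the genotypes, with differences of -0.31 and 0.18 as Padi4 KO minus WT. Neither these differences nor the response of either gene in either genotype passed the test. For Itgam in WT the sides lay close, 3031 CPM at most with R848 against 3034 CPM at least without. The flag asks only that 2 libraries not overlap 2 others, and its share over all genes was not counted.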

How the results depend on the processing

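The responses of Per1, Per2, Cry1 and Bhlhe40 to R848 kept their direction and their call in both genotypes under each of 15 alternatives, over which Per1 ranged from -2.77 to -2.13 in WT and -3.50 to -2.97 in Padi4 KO, Per2 from -2.49 to -1.99 and -2.25 to -1.80, Cry1 from 2.63 to 3.25 and 2.98 to 4.01, and Bhlhe40 from 3.70 to 4.26 and 3.93 to 4.45 (log2). The 4 were the members that filterByExpr kept. With no limit on the fold change the counts of members called were the same. DESeq2 gave no adjusted p for 19 results of 7 members. In Padi4 KO, it called 2 members higher and 2 lower, Clock being lost and Nr1d2 having no adjusted p.

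Members called lower in unstimulated Padi4 KO numbered 0 with DESeq2, with library size alone and on the neutrophil marker scale, where 1 was called higher. They numbered 0 to 3 with each library left out, 0 without replicate 2 of unstimulated WT and 1 without replicate 2 of unstimulated Padi4 KO. After R848, 1 was lower and 3 higher on the marker scale, and 1 to 2 were lower with each library left out, 1 without replicate 1 of R848-treated WT. The DESeq2 values of Bhlhe40, Cry1 and Per1 without stimulation were -1.15, -0.68 and -0.49. The signs of Per1 (0.065) and Per2 (0.13) without stimulation, and of Per2 (0.43) and Cry1 (0.42) after R848, turned on the marker scale, which moved the median log2 change of genes with at least 10 counts to 0.45 and 0.60 between genotypes, and those of Cry1 (0.034) and Per2 (0.051) after R848 with library size alone. Leaving out single libraries turned uncalled values only, namely the difference of response for Bhlhe40 (-0.10 to 0.54), Per2 (-0.015 to 0.40), Clock (-0.27 to 1.30) and Nr1d1 (-2.14 to 2.73), and the genotype difference of Clock without stimulation (-0.54 to 1.03) and of Cry2 (-0.11 to 1.04) and Nr1d1 (-2.85 to 2.03) after R848. The cause was not tested.

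Over all genes, DESeq2 called fewer: 719 lower in WT and 599 in Padi4 KO after R848, 35 higher and 90 lower in the difference, 475 higher and 586 lower in unstimulated and 387 and 621 in R848-treated Padi4 KO against WT. Library size alone gave 2106 and 2072 lower and, in Padi4 KO, 624 higher after R848, 255 higher in the difference, and 1901 higher and 562 lower, and 1869 and 417, between genotypes, as it moved the median log2 change of genes with at least 10 counts to -0.38 and -0.30 in the responses (from -0.07 and 0.08) and to 0.12 and 0.21 between genotypes (from -0.16 and -0.00). Relative log expression factors gave 160 higher and 233 lower in the difference. With each library left out, calls ranged from 52 to 292 higher and 99 to 349 lower in the difference, from 778 to 1597 higher and 1115 to 1413 lower without stimulation, and from 648 to 1179 higher and 920 to 1119 lower after R848, against 421 and 154, 1169 and 1767, and 1157 and 961.

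Same-numbered libraries did not deviate together (correlations -0.02 to 0.02). At this depth counting noise can hold such correlations near 0, so they cannot decide whether same-numbered libraries were paired. With the replicate number as a block, no call of a clock gene changed, and 2 members rose and 2 fell in WT and 3 and 3 in Padi4 KO. Depth limits Arntl, Clock, Cry2, Nr1d1, Nr1d2 and Dbp, which averaged under 10 counts.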
